A study of Mus musculus with 41 samples.

Results

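The response of the wild type spleen to C. parvum was measured on 10 of the 41 arrays of a mouse spleen miRNA series. All arrays labelled with the intact genotype p53+/+NOS2+/+ were taken, which gave 5 C. parvum arrays and 5 saline control arrays. The mice were of the strain C57BL, and the labels give no sex, age, dose or time after treatment. The other arrays come from NOS2 knockout (10 arrays), p53 knockout (9 arrays) and double knockout (12 arrays) mice, treated or not in the same way, and serve here only for a closing comparison. C. parvum is not spelled out in the labels. As background, in mouse work on inflammation the name has stood for Corynebacterium parvum, a killed bacterial preparation that drives macrophages and granulocytes into organs such as the spleen. Total RNA was converted to biotin-labelled cDNA and hybridised to an array of 637 miRNA probes, of which 319 had at least 3 values on each side and were tested. Each grouping comprised 4 or 5 mice according to the design text, and nothing in the labels ties an array to an animal, so p-values measure the spread between these arrays.

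miRNAs are short RNAs that lower the output of mRNAs that pair with bases 2 to 8 of the miRNA, its seed. Members of a family share a seed, and neighbours in a genomic cluster are cut from one transcript. The mouse spleen holds B and T lymphocytes, macrophages, granulocytes, a smooth muscle and fibroblast framework, endothelium and, unlike the adult human spleen, red cell precursors, which multiply during inflammation and anaemia. Many miRNAs are abundant in a single one of these lineages, and the results below follow that order: red cell, myeloid, lymphoid, stromal, endothelial and progenitor miRNAs, then those known from inflammation.

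The mature sequences that carry the main results are shown 5′ to 3′ with the seed in capitals, first the miRNAs of red cells and of myeloid cells.
miR-451a: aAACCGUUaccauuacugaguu
miR-144-3p: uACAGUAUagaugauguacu
miR-223-3p: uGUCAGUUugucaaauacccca
miR-27a-3p: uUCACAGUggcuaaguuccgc
The next sets are families whose members share a seed, shown because the members of 1 seed either all fell (miR-181 and miR-29) or passed the test only in part (miR-99 with miR-100, and miR-222 with miR-221).
miR-181a-5p: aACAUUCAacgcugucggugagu
miR-181b-5p: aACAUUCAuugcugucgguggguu
miR-181c-5p: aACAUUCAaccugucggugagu
miR-29a-3p: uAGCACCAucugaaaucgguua
miR-29b-3p: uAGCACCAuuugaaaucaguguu
miR-29c-3p: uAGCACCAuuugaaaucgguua
miR-99a-5p: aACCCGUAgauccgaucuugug
miR-100-5p: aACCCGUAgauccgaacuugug
miR-99b-5p: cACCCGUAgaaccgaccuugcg
miR-222-3p: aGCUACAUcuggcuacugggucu
miR-221-3p: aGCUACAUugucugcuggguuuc
miR-199a-3p is the stromal example.
miR-199a-3p: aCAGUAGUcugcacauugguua

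These letters and positions are those of RefSeq on build GRCm38.p6, where 32 of 34 mature miRNAs looked for were found, and the mature RNA is part of the miRNA gene of the same name. Most probe names do not state the arm, so the arm shown is the one that the older plain name stood for. On the plus strand, miR-144-3p lies at chr11:78073047-78073066 and miR-451a at chr11:78073186-78073207, and their hairpins are 99 bases apart. miR-27a-3p lies at chr8:84208727-84208747 on the plus strand, in a cluster with miR-23a (79 bases from it) and miR-24-2 (56 bases from it). miR-222-3p at chrX:19146901-19146923 and miR-221-3p at chrX:19146307-19146329 are read from the minus strand, with 504 bases between their hairpins. miR-181a-5p is encoded at chr1:137966468-137966490 and at chr2:38852741-38852763, both on the plus strand. miR-29a-3p at chr6:31062673-31062694 (minus strand) has miR-29b-1 as its neighbour 275 bases away, and miR-29c-3p at chr1:195037600-195037621 (plus strand) has miR-29b-2 at 426 bases. miR-99a-5p lies at chr16:77598940-77598961 and miR-100-5p at chr9:41531437-41531458, both on the plus strand. Counted from 1 at the 5′ end, with miR-99a or miR-29a first, miR-99a and miR-100 differ by U16A, and miR-29a and miR-29c by C10U.

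Levels below are the deposited log values, taken as log2, after quantile normalization between the 41 arrays. A change is the mean of the C. parvum arrays minus that of the control arrays on this log2 scale, given ± SE from the limma fit. The labels and the table state no base of the logarithm, and the highest value of 16.9 lies above the ceiling of common scanners on a log2 scale, so every change and fold would differ with another base. A probe is called where limma's Benjamini-Hochberg adjusted p, over all 319 probes, was under 0.05. Probe names end in -a or -p. The sources used here do not say what the endings mean, so probes of a miRNA are given one by one, and levels of different probes are not compared. Because of quantile normalization, equal ranks on different arrays carry identical values.

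One array stood apart among the 10. Control 2 had a value for 310 probes, against 351 to 387 on the other 9 arrays, and its correlation with the other control arrays was 0.892 to 0.938, against 0.965 to 0.984 among the 5 C. parvum arrays. Of the 54 probes called higher that it measured, control 2 held the lowest control value for 18, and of the 53 called lower that it measured it held the highest control value for 27. At the other end, control 1 held the lowest control value for 32 of the 55 probes called lower. The main results therefore use all 5 controls, and values without control 2 stand beside the results it decides. The array medians as deposited were 9.87 to 9.95 on the C. parvum arrays and 10.13 to 10.25 on the control arrays, so the treated arrays were dimmer before normalization. For the label spleen, the probes of blood lineage miRNAs were checked: miR-142, miR-150, miR-223 and miR-342-a had values on all 10 arrays. miR-342-p had values on 5 C. parvum arrays and 2 controls. Of the pancreas and liver miRNAs listed, miR-217 and miR-122a had no value on any C. parvum array, against 1 control array for miR-217-p and 3 for miR-122a-a, while both miR-375 probes had values on all 10 arrays. The pancreas probe miR-216a-a had a value on 0 C. parvum arrays and 1 control, and miR-216b-a on 1 array of each group.

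C. parvum changed the levels of 110 of the 319 probes (34.5%), 55 higher (17.2%) and 55 lower (17.2%). miR-486, miR-451, miR-672 and miR-222 led the rises, and miR-699, miR-703, miR-99a and miR-181a led the falls. Changes of the called probes ran in size between 0.30 and 2.35, with a median of 0.82 among the rises and -0.93 among the falls, and 18 rises and 24 falls exceeded 1 on the log2 scale. In 92 probes (28.8%) the 2 groups did not overlap, 44 with every C. parvum array above every control (13.8%) and 48 below (15%). The balance of rises and falls rests on the scaling: with the values as deposited 40 were higher and 71 lower (36.0% of calls higher), and with each array centred on its median 79 were higher and 49 lower (61.7% higher). The median change over all tested probes was 0.06 after quantile normalization, -0.06 as deposited and 0.23 after centring.

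miR-486 and miR-451, both of red cells, gave the largest rises of all called probes. miR-486, which is carried in an intron of the ankyrin gene Ank1 and is abundant in red cell precursors, came first. Its -a probe stood at 14.51, 14.21, 14.51, 14.66 and 14.35 on the C. parvum arrays, against 11.28, 12.40, 11.87, 12.40 and 12.57 on the control arrays. All 5 treated arrays lay above all 5 controls. The change was 2.35 ± 0.39, or 5.08-fold (limma, adjusted p = 1.38e-05). miR-451, a miRNA of maturing red cells that is cut by Argonaute 2 and not by Dicer, stood at 13.51, 13.44, 13.51, 13.30 and 12.68 after C. parvum, against 11.83, 10.99, 11.45, 11.97 and 11.58 in control. The groups did not overlap, and C. parvum array 5 was the lowest of the treated arrays. The miR-451-a change was 1.72 ± 0.33, or 3.30-fold (adjusted p = 1.21e-04), and the -p probe of miR-451 also rose, by 1.34 ± 0.27.

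miR-144, the cluster partner of miR-451, did not meet the rule of 3 values per side. Its probe was measured on 5 of 5 C. parvum arrays, at 8.18, 8.56, 8.43, 8.51 and 7.76, and on 0 of 5 control arrays. No fold or test is possible against a group without values. The -p probe of miR-486 had values on 5 of 5 C. parvum arrays and 2 of 5 control arrays. Both testable members of the 3-member red cell list were thus called higher, where 17.2% of all tested probes were higher. The third was seen on the treated arrays alone. The list median was 2.03, against 0.06 over all tested probes. In whole spleen RNA, more cells of a type and more of an RNA per cell cannot be told apart, here and in all results below.

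**Figure D1:**
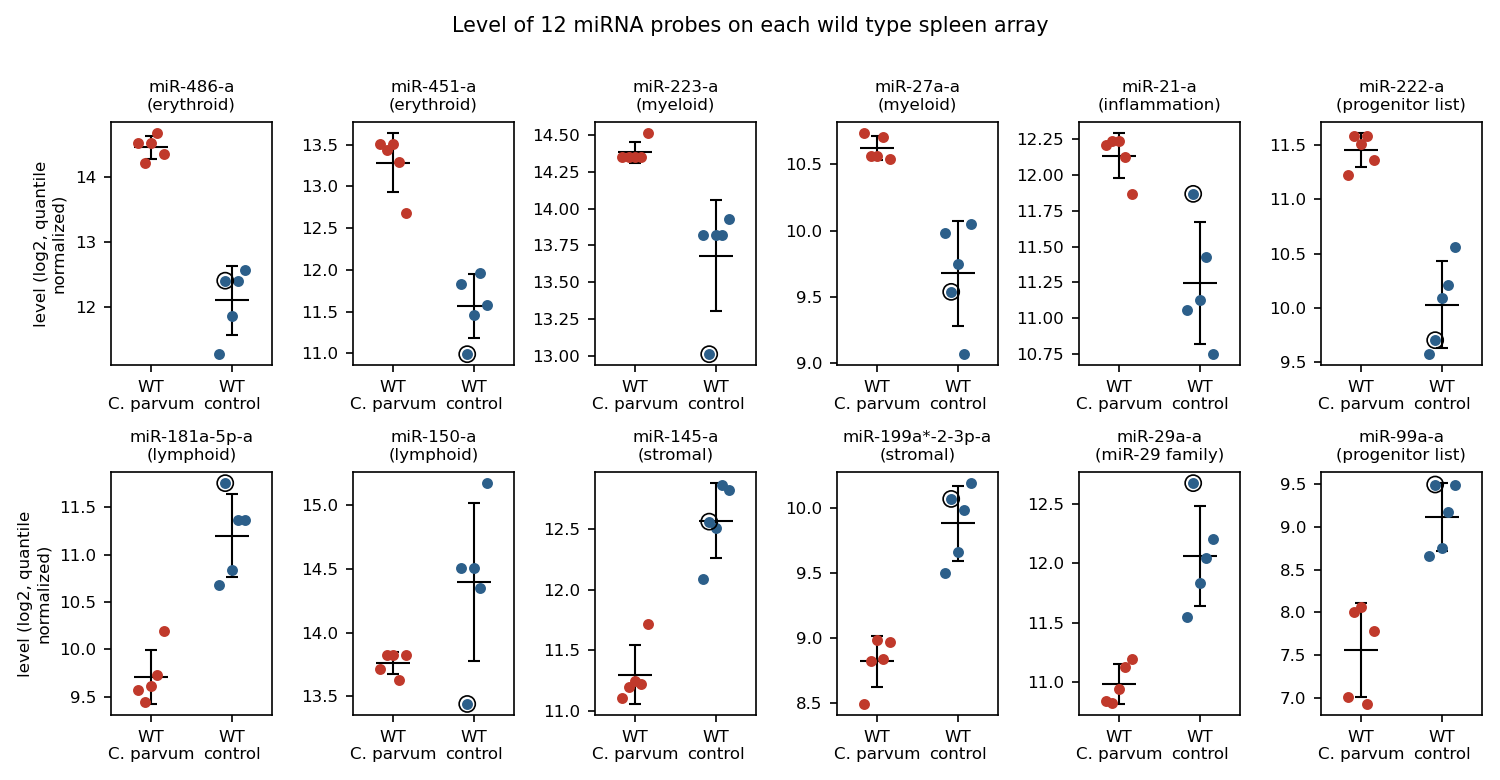
Levels (log2, quantile normalized) of 12 probes on each wild type array, C. parvum left and control right in each panel, with mean and SD (n = 5 each). Control 2 is ringed. The upper row holds probes that were higher after C. parvum, and in the lower row the probe of miR-150 is the one that was not called, with control 2 at 13.44 below the treated arrays.

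Myeloid miRNAs split. miR-223, the miRNA of neutrophils and other myeloid cells, stood at 14.35 on 4 C. parvum arrays and 14.51 on the other, against 13.82, 13.01, 13.82, 13.82 and 13.93 on the control arrays. Every treated array was above every control. Its change was 0.70 ± 0.19 (adjusted p = 0.00298), and 0.54 without control 2, where the lowest level was found. miR-27a stood at 10.73, 10.56, 10.56, 10.71 and 10.54 after C. parvum, against 9.98, 9.54, 9.75, 9.07 and 10.05 in control, and rose by 0.95 ± 0.16 (adjusted p = 1.52e-05). Probes of miR-23a and miR-24 differed in direction. Mature miR-24-3p is encoded by miR-24-2 in the cluster of miR-27a and also by miR-24-1 on chromosome 13. The probe miR-24-1-3p-a, named for the latter gene, fell by 0.58 on the log2 scale (SE 0.14, adjusted p = 0.0012). It stood at 11.80 to 12.01 on the C. parvum arrays, against 12.17 to 12.68 on the control arrays. This fall cannot be assigned to either gene. miR-23a-a fell by 0.50 (SE 0.14, adjusted p = 0.00425), at 14.80 to 15.17 against 15.30 to 15.73. The fall of miR-23a rests on the scaling, with -0.32 (adjusted p = 0.062) as deposited and -0.03 (adjusted p = 0.889) after median centring, while miR-27a and miR-24-1-3p-a were called under each scaling. The probe miR-24-2-p rose by 0.59 ± 0.18, a call lost with values as deposited (0.36, adjusted p = 0.084), and miR-24-2-a/p was at -0.50 ± 0.30 and not called. Of the 4 myeloid members, all tested, 2 were higher and 2 lower, with a median of 0.10. Over all tested probes, 17.2% were called in each direction.

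The miR-181 family fell. miR-181a, a miRNA of developing B and T cells, stood at 9.57, 9.44, 9.61, 9.73 and 10.19 on the C. parvum arrays, against 10.68, 11.76, 10.84, 11.36 and 11.36 on the control arrays. The treated array nearest to the controls was array 5, and no values overlapped. miR-181a-5p-a fell by 1.49 on the log2 scale (SE 0.19, adjusted p = 3.90e-07). miR-181c, which has the same seed and is encoded on chromosome 8, fell by 1.48 (SE 0.22, adjusted p = 4.47e-06). Its levels were 9.27, 9.04, 9.08, 9.25 and 9.61 after C. parvum, against 10.12, 11.61, 10.35, 10.59 and 11.01 in control. The 2 probes of miR-181b fell by 0.998 (miR-181b-2-a, SE 0.18) and 0.89 (miR-181b-1-a, SE 0.26), and that of miR-181b-1-a was -0.52 without control 2 (adjusted p = 0.051). miR-213-a, an older name for the opposite arm of the miR-181a-1 hairpin, picked out after its value was seen, fell by 1.02 (SE 0.15). The probe miR-181a-2-p rose by 1.16 ± 0.24, against the direction of the other miR-181 probes named here, with 11.31 to 12.28 after C. parvum and 9.57 to 11.22 in control.

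miR-150, the miRNA of mature resting B and T cells, was not called with all arrays. Its levels were 13.72, 13.82, 13.82, 13.63 and 13.82 on the C. parvum arrays, against 14.51, 13.44, 14.51, 14.35 and 15.17 on the control arrays. The treated arrays lay close together and below 4 of the 5 controls, while control 2 was below all of them. The change was -0.63 ± 0.28 (adjusted p = 0.0743) with control 2 and -0.88 (adjusted p = 0.0130) without it. miR-342, also abundant in lymphocytes, had a change of 0.12 ± 0.11 (adjusted p = 0.397) and was called higher, by 0.48, after median centring alone among the scalings. Of the 5 lymphoid members tested, 3 were lower, 0 higher and 2 not called (4 lower without control 2), with a median of -0.998. Over all tested probes, 17.2% were lower. The miRNA of all blood cells, miR-142, was not called by its 5p probe (-0.18 ± 0.19, adjusted p = 0.491) or its 3p probe (-0.35 ± 0.33, adjusted p = 0.418).

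The stromal list holds miRNAs of smooth muscle and fibroblasts. miR-145, of smooth muscle, stood at 11.10, 11.20, 11.25, 11.22 and 11.72 on the C. parvum arrays, against 12.09, 12.57, 12.52, 12.87 and 12.82 on the control arrays. Array 5 was again the treated array closest to control, and the groups did not overlap. Its fall was 1.28 on the log2 scale (change -1.28 ± 0.19, adjusted p = 4.47e-06). miR-143, cut from the same transcript as miR-145, had values on 2 of 5 C. parvum arrays, at 7.52 and 6.23, and on 5 of 5 control arrays, at 8.29 to 8.60. It was not tested.

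miR-199a-2 and miR-214 come from 1 transcript antisense to the dynamin gene Dnm3 and are known from mesenchymal cells. The miR-199a-3p probe miR-199a*-2-3p-a stood at 8.49, 8.82, 8.98, 8.84 and 8.96 after C. parvum, against 9.50, 10.07, 9.66, 9.98 and 10.19 in control. It fell by 1.06 (SE 0.24, adjusted p = 7.81e-04), and the other probes of this arm fell by 1.16 (miR-199a*-1-3p-a) and 1.08 (miR-199a*-3p-a). The 5p arm gave no test on 2 probes, with values on 0 of 5 C. parvum and 4 of 5 control arrays for miR-199a-5p-a and on 2 of 5 and 4 of 5 for miR-199a-1-5p-a. The probe miR-199a-2-5p-ap had a change of 0.11 ± 0.25. miR-214 fell by 0.53 (SE 0.16, adjusted p = 0.00722), at 8.55 to 8.89 against 9.08 to 9.42, and miR-199b-ap had values on 1 of 5 C. parvum and 5 of 5 control arrays. The other probes of miR-199b had more values after C. parvum, miR-199b-p on 4 arrays against 2 and miR-199b-a on 2 against 0. Against these, miR-497 rose by 0.68 ± 0.17 (adjusted p = 0.00187) to 9.75 to 10.07, against 8.98 to 9.42 in control. Its neighbour 241 bases away, miR-195, has the same seed and was not called (0.34 ± 0.29, and -0.03 without control 2). Of the 5 stromal members tested of 7, 3 were lower and 1 higher, with a median of -0.53, where 17.2% of all tested probes were lower.

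Of the 2 endothelial members, 1 was called lower, where 17.2% of all tested probes were lower, and most changes were small. miR-126 is cut from an intron of Egfl7 in endothelial cells, and miR-123 is an older name for its star arm, the 5p arm. Both tested miR-126 probes are also named for the 5p arm. By these names the 2 members cover the same arm, so their count is not one of 2 separate miRNAs. miR-123-a stood at 12.68, 12.82, 13.01, 12.71 and 13.22 after C. parvum, against 13.51, 12.77, 13.51, 13.44 and 13.38 in control, and fell by 0.43 (SE 0.17, adjusted p = 0.0397). That call was lost in 7 of the 10 fits that left out 1 array. miR-126*-5p-a also fell by 0.43 (SE 0.17, adjusted p = 0.0392, lost in 6 of 10 such fits). miR-126-5p-a had a change of -0.30 ± 0.22 (adjusted p = 0.293), and of -0.52 (adjusted p = 0.044) without control 2. The probe miR-123-p, with values on 4 arrays of each group, fell by 1.17 (SE 0.33, adjusted p = 0.0046).

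**Figure D2:**
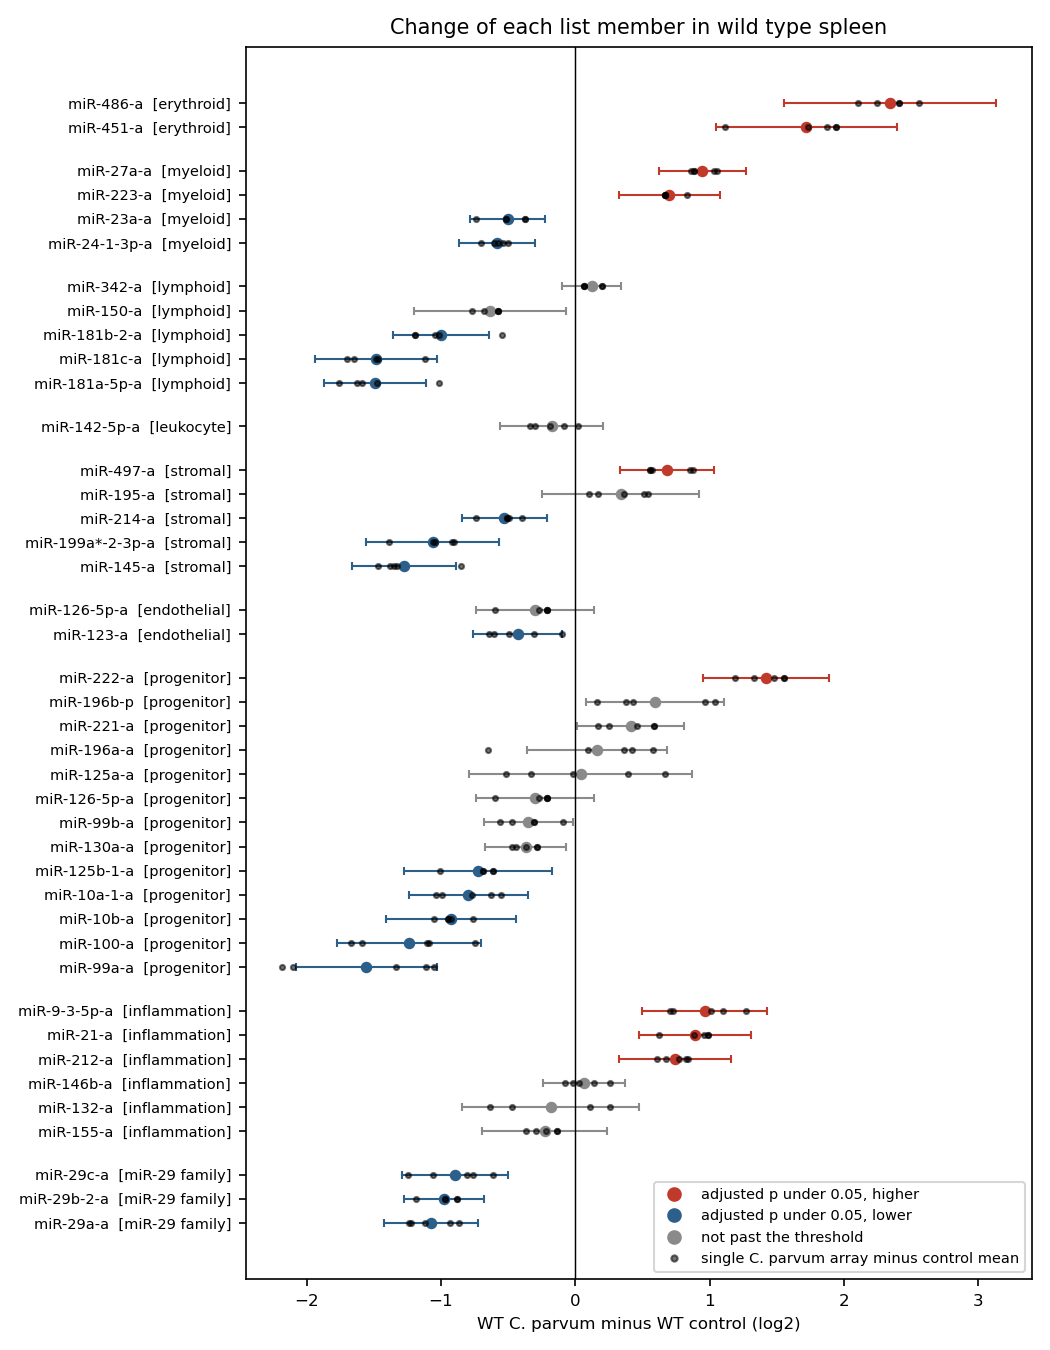
Change of each list member in wild type spleen (x axis, C. parvum minus control, log2) with its 95% interval, grouped by list. Each member is shown by 1 probe, and small dots are single C. parvum arrays minus the control mean. The red cell members lie at 1.72 and 2.35, the miR-181 members between -1.49 and -0.998 and the miR-29 members between -1.08 and -0.90.

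Among miRNAs of stem and progenitor cells, some members of a shared seed were called and others were not, and differences between members were not tested. miR-99a, which lies 656 bases from let-7c-1 on chromosome 16, had the largest fall of this list. It stood at 7.01, 8.01, 8.06, 6.93 and 7.78 on the C. parvum arrays, against 8.66, 9.50, 8.75, 9.17 and 9.50 on the control arrays. The treated arrays fell into a lower pair (arrays 1 and 4) and a higher group of 3, all of them under the controls. Its fall was 1.56 on the log2 scale (SE 0.26, adjusted p = 1.38e-05), and that of miR-100, 1 base away in sequence, was 1.24 (SE 0.27, adjusted p = 3.52e-04). Arrays 1 and 4 were also lowest for miR-100, at 8.02 and 8.11, against 8.58 to 8.95 on the other treated arrays and 9.27 to 10.12 on the controls. The -a probe of miR-99b, with the same seed, was not called (-0.35 ± 0.16, adjusted p = 0.0966), nor was miR-99b-p (0.95 ± 0.90).

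miR-10a and miR-10b, which lie within the Hox gene clusters, both fell. miR-10b stood at 9.60 to 9.89 on the C. parvum arrays and 9.90 to 11.45 on the control arrays, a fall of 0.93 (SE 0.24, adjusted p = 0.00225). The probes miR-10a-a and miR-10a-1-a fell by 0.91 and 0.80. miR-125b, expressed in blood stem cells, fell by 0.72 on miR-125b-1-a (SE 0.27) and by 0.75 on miR-125b-2-a (SE 0.28), and these calls were lost in 7 and 5 of the 10 fits without 1 array. Control 1 was the lowest control for both, at 10.80 and 10.23. The other tested probes of miR-125b, miR-125b-a (-0.66 ± 0.33) and miR-125b-1-p (0.22 ± 0.17), were not called. The seed relative of miR-125b, miR-125a, had a change of 0.04 ± 0.41. miR-130a was at -0.37 ± 0.15 (adjusted p = 0.0504), and at -0.23 without control 2.

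miR-222 and miR-221, known from human cells as repressors of the growth factor receptor KIT, share a seed and a transcript. miR-222 stood at 11.22, 11.58, 11.51, 11.58 and 11.36 after C. parvum, against 9.57, 9.70, 10.09, 10.21 and 10.56 in control. Every treated array was above every control, and the rise was 1.42 ± 0.23, or 2.68-fold (adjusted p = 1.08e-05). miR-221 stood at 11.28, 11.61, 11.20, 11.48 and 11.61, against 10.82, 11.43, 10.71, 11.04 and 11.13, with an overlap through control 2 at 11.43. Its change of 0.41 ± 0.20 (adjusted p = 0.105) became 0.51 (adjusted p = 0.049) without control 2. The probe miR-221-p was not called (-0.48 ± 0.32). Of the 13 progenitor members, all tested, 1 was higher, 5 lower and 7 not called, with a median of -0.35, where 34.5% of all tested probes were called. The probe miR-196a-2-p fell by 1.14 (SE 0.27), while miR-196a-a (0.16 ± 0.26), miR-196a-1-a (0.39 ± 0.44) and miR-196b-p (0.59 ± 0.25) were not called. The -a probe of the same name, miR-196a-2-a, went the other way at 0.80 ± 0.34. It was not called (adjusted p = 0.062), although every treated array lay above every measured control.

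Of the miRNAs known from inflammation, miR-21, miR-9 and miR-212 rose. miR-21, which is induced in activated macrophages and many inflamed tissues, stood at 12.21, 12.24, 12.24, 12.13 and 11.87 after C. parvum, against 11.06, 11.87, 11.13, 11.43 and 10.75 in control. Control 2 reached the level of C. parvum array 5, and all other controls were below the treated arrays. The change was 0.89 ± 0.21 (adjusted p = 7.93e-04). miR-9, known to be induced by bacterial lipopolysaccharide in human neutrophils and monocytes, rose by 0.96 ± 0.23 on its probe miR-9-3-5p-a, whose levels were 10.49 to 11.06 after C. parvum and 9.54 to 10.03 in control. That call was lost with missing cells at a low value (adjusted p = 0.10). Of the probes of the opposite arm, miR-9*-2-3p-a was not called (-0.20 ± 0.23). The probe miR-9*-3-3p-a rose by 0.92 ± 0.30, a call lost in 4 of 10 fits without 1 array. The same call was lost as deposited, in fits on the wild type arrays alone, with missing cells at a low value and with a block for replicate number. miR-212 rose by 0.74 ± 0.20, at 10.52 to 10.75 against 9.61 to 10.17. As deposited, miR-212 was at 0.46 (adjusted p = 0.059).

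The best known pair of miRNAs induced by bacterial products was not called, and both members were picked out after their values were seen. miR-155 stood at 13.22, 13.15, 13.30, 13.38 and 13.38 after C. parvum, against 13.30, 13.82, 13.44, 13.38 and 13.63 in control, a change of -0.23 ± 0.23 (adjusted p = 0.457). The probe miR-146-a, whose name does not say which of the miR-146 genes it covers, had a change of -0.00 ± 0.16 with 13.72 to 14.04 against 13.63 to 14.04. miR-146b was at 0.07 ± 0.15, and miR-132, the cluster partner of miR-212, at -0.18 ± 0.33 with 4 values per group. Of the 6 inflammation members tested of 8, 3 were higher and 0 lower, with a median of 0.40, where 17.2% of all tested probes were higher.

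All 3 members of the miR-29 family fell, where 17.2% of all tested probes were lower. This family represses collagens and other matrix genes and has been studied in lymphocytes as a brake on interferon gamma. miR-29a stood at 10.84, 10.82, 10.94, 11.13 and 11.20 on the C. parvum arrays, against 11.55, 12.68, 11.83, 12.04 and 12.21 on the control arrays. It fell by 1.08 (SE 0.17, adjusted p = 9.76e-06) with no overlap. miR-29b, encoded at both family clusters, fell by 1.13 (miR-29b-a), 1.04 (miR-29b-1-a) and 0.98 (miR-29b-2-a), and miR-29c, which is outside the rule for named probes and was added after its value was seen, fell by 0.90 (SE 0.20, adjusted p = 4.16e-04). In all 3 the groups did not overlap. Of the probes with the other ending, miR-29a-p rose by 0.55 ± 0.20, with overlapping groups, and miR-29c-p by 0.73 ± 0.19. miR-29b-2-p was not called (0.25 ± 0.20). These -p probes were also chosen after their values were seen.

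Over the whole array, calls were counted by ending. Of 214 tested -a probes, 34 were higher and 46 lower (37.4% called), with a median change of -0.01, and of 102 tested -p probes, 21 were higher and 9 lower (29.4% called), with a median change of 0.23. A difference between endings was not tested.

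The growth-related let-7 and miR-17-92 lists had fewer calls than the 34.5% of all tested probes. Of 8 tested let-7 members, let-7d was called higher (let-7d-5p-a, 0.60 ± 0.18, adjusted p = 0.0101, and 0.48 with adjusted p = 0.053 without control 2), and the list median was 0.18. Of 10 tested members of the miR-17-92 family, which drives cell division in lymphocytes and progenitors, 0 were called on their main probes by limma, although the second probes miR-106a-p (1.04 ± 0.33) and miR-93-p (0.44 ± 0.16) rose. miR-92-1-a was at 0.07 ± 0.14. Among 7 miRNAs known as p53 targets, in mice whose p53 gene was intact, 3 fell and 0 rose, where 17.2% of all tested probes were lower. miR-34a, the best known of them, stood at 6.15, 6.55, 7.03, 6.73 and 6.33 after C. parvum, against 7.17, 8.55, 6.96, 7.66 and 8.05 in control, a fall of 1.12 (SE 0.32, adjusted p = 0.00543). Control 3 lay within the treated range. miR-215 and miR-192, which share a seed, fell by 1.25 (SE 0.28) and 0.55 (SE 0.16). The C. parvum means of miR-34a (6.56) and miR-215 (6.99) lay below 7.01, the median level of probes just outside the rule. Both falls thus end at the low end of the scale of the array.

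Lists of miRNAs known from other organs were counted too, where 34.5% of all tested probes were called. Of 7 epithelial members 2 were testable: miR-203, of skin and other epithelia, fell by 1.15 (SE 0.26), and by 0.79 without control 2, whose 11.65 stood above 9.79 to 9.96 on the other controls. The -p probe of miR-200b rose by 0.88 ± 0.30 on 3 C. parvum arrays and 5 controls, and turned to -0.30 (adjusted p = 0.652) when missing cells were set to a low value. miR-375, of pancreatic islets, was not called on its -a probe (-0.44 ± 0.81, and -0.77 without control 2). The probe miR-375-p rose by 0.89 ± 0.29, and by 0.68 without control 2, where the call was lost (adjusted p = 0.062). None of the 3 nervous system members tested was called (largest size 0.45, miR-128b-a, at -0.17 without control 2), and of the 4 striated muscle members tested only miR-208-p was called, by 0.54 ± 0.22, which was lost in 7 of 10 fits without 1 array. The part of other tissue in these results was not tested.

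Outside the lists, several probes changed as much as the lineage miRNAs. miR-699-a stood at 7.93, 8.60, 7.57, 8.22 and 9.02 after C. parvum, against 10.89, 10.35, 10.45, 10.66 and 10.21 in control, the largest fall of all called probes (change -2.24 ± 0.30, adjusted p = 6.76e-07). Its -p probe fell by 1.09 (SE 0.22). miR-703-a fell by 1.75 (SE 0.34), miR-669c-p by 1.27 (SE 0.27) and miR-138-2-a by 1.32 (SE 0.27), a miRNA best known from brain. In the last of these control 5 was at 8.58 and control 1 at 10.54, against 7.98 to 8.47 on the C. parvum arrays. The second probes miR-703-p (-0.44) and miR-669c-a (0.27), looked up after their values were seen, were not called.

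Rises outside the lists began with miR-672-p, at 12.13, 11.55, 11.55, 11.06 and 10.84 after C. parvum, against 9.56, 9.89, 9.94, 10.25 and 10.15 in control (change 1.47 ± 0.25, adjusted p = 1.52e-05). miR-7, a miRNA of neuroendocrine tissue, rose by 1.34 ± 0.23 on miR-7-2-a (adjusted p = 2.31e-05), with 12.01 to 12.52 against 10.68 to 11.17. Its other probes, looked up after their values were seen, did not rise. miR-7-1-p was called lower (-0.87) and miR-7-2-p was not called (-0.08). miR-7-1-a was not tested, with values on 5 C. parvum arrays (mean 6.45) and 2 controls (mean 6.67). miR-335-p (miR-335 is carried in the imprinted gene Mest) rose by 1.07 ± 0.19 and miR-101b-p by 1.12 ± 0.18, both without overlap. miR-483, from an intron of the imprinted growth factor gene Igf2, rose by 1.09 ± 0.29, with control 2 the lowest at 11.13. miR-326-a (1.13 ± 0.25), miR-448-a (1.15 ± 0.27), miR-702-a (1.10 ± 0.22), miR-705-p (1.17 ± 0.20) and miR-412-a (1.21 ± 0.40) completed the leading rises with miR-700-a, and the call of miR-412-a was lost in 3 of 10 fits without 1 array. The rise of miR-700-a was 1.15 ± 0.34 with control 2, which stood at 8.72 against 10.47 to 11.65 on the other controls, and 0.73 (adjusted p = 0.051) without it. miR-22, a miRNA active in red cell and myeloid development that was picked out after its value was seen, rose by 1.07 ± 0.23, with 9.56 to 10.35 against 8.65 to 8.92. Second probes of these miRNAs were also looked up after their values were seen. miR-672-a (0.45), miR-700-p (-0.15), miR-702-p (-0.70) and miR-22-p (0.11) were not called, and miR-483-p (0.82) was called higher.

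Presence or absence of a value added probes that the change cannot describe. Of the 637 probes, 124 had no value on any of the 10 arrays and 255 had one on all 10. Among the 318 probes that did not meet the rule, 26 had values on 4 or 5 C. parvum arrays and at most 2 controls, and 17 had values on 4 or 5 controls and at most 2 C. parvum arrays. Besides miR-144, miR-695-p was seen on 5 of 5 C. parvum arrays, at 6.23 to 7.59, and on 0 of 5 controls. The reverse held for 3 probes, none of them picked by the rule for named probes. miR-182-a, of a cluster induced in activated helper T cells, had values of 6.86, 8.58, 7.46, 8.31 and 8.09 on the control arrays and none on the C. parvum arrays. miR-218-a was seen on the controls at 6.14 to 8.01 and miR-685-a at 7.08 to 8.04, again on 0 of 5 C. parvum arrays. All of these levels are low on the scale of the array. Other probes of miR-218 and miR-685 were looked up after their values were seen. miR-218-1-a (0.23), miR-218-1-p (-0.46) and miR-685-p (0.17) had values on all 10 arrays and were not called. miR-218-2-p had a value on 0 C. parvum arrays and 1 control. Probes just inside the rule (3 values on a side, 22 probes) had a median level of 7.30 on the C. parvum arrays and 7.35 on the controls, and probes just outside it (2 values on a side, 33 probes) 7.01 on both.

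The response was alike in size on the 5 C. parvum arrays. Per array, the median rise of the 55 probes called higher lay between 0.80 and 0.93 above the control mean, and the median fall of the 55 called lower between -1.06 and -0.83. Array 5 had the smallest value in both directions. It held the highest treated value in 23 of the 54 falling probes it measured and the lowest in 18 of 55 rising ones, while array 1 held the lowest in 20 of 55 falling probes. Of the 110 called probes, 109 had every measured C. parvum array on the same side of the control mean, and the 1 exception was miR-9*-3-3p-a, at 8.33 on array 5. These probes were chosen by their change, so the counts are a description. Over all tested probes, the median distance from the control mean was 0.449 to 0.523 on the C. parvum arrays and 0.180 to 0.371 on the controls, with control 2 the highest control. Each control is itself part of that mean, which shortens its distance, so these ranges are not on equal terms.

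**Figure D3:**
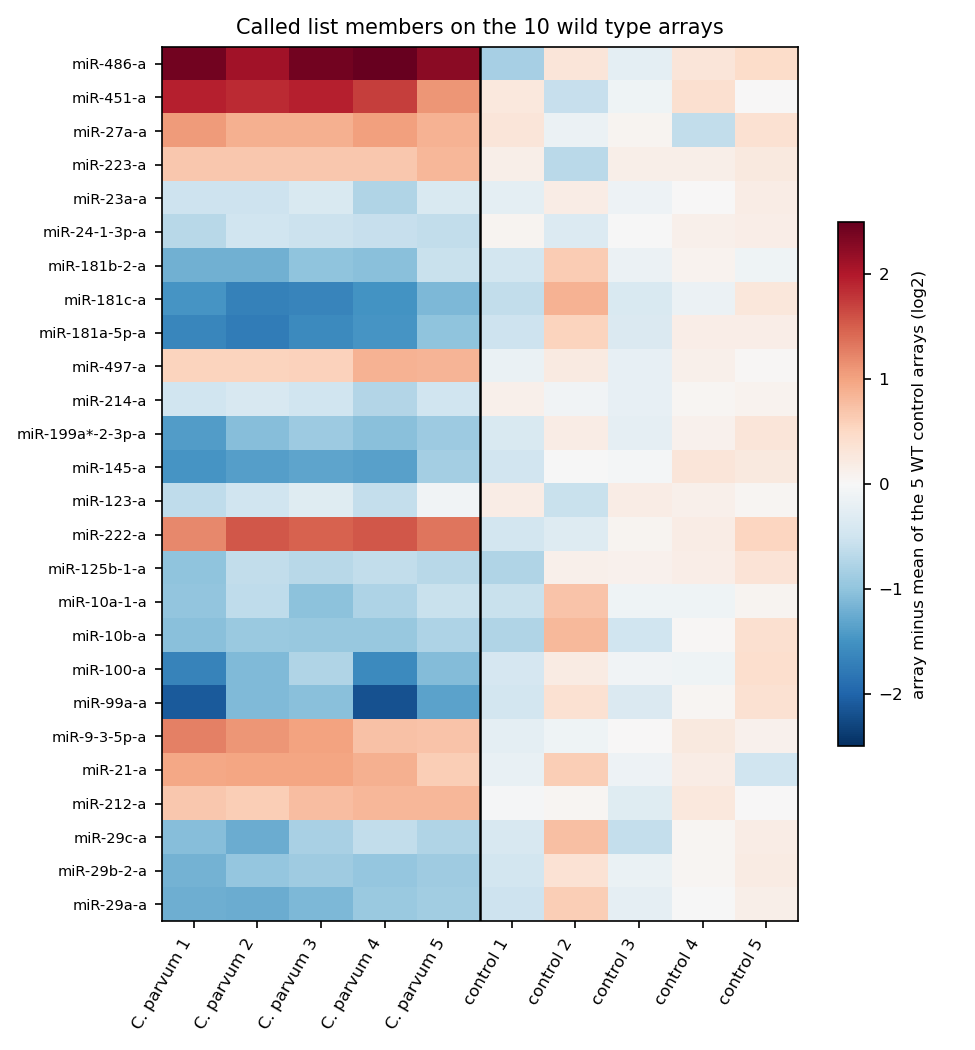
Difference of each of the 10 wild type arrays (columns, C. parvum left) from the mean of the 5 control arrays (log2, colour) for 26 called members of 9 lists (rows). The treated columns resemble each other, with array 5 paler in miR-451-a and the miR-181 rows, and among the controls column 2 is redder in the miR-181, miR-10 and miR-29 rows.

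Without control 2, 106 probes were called (33.7% of the 315 tested), of which 100 were among the 110. The 10 lost calls include miR-181b-1-a, miR-700-a, let-7d-5p-a, both miR-125b probes and miR-375-p, and the 6 gained include miR-150-a, miR-221-a and miR-126-5p-a. The red cell, myeloid, stromal, inflammation and miR-29 lists had the same counts as with it, the endothelial list had 2 lower and the progenitor list 2 higher and 5 lower. In 108 of the 319 probes of the main test the groups did not overlap, against 92 with control 2. Leaving out any array can only keep or raise this count. The change of miR-486-a was 2.42 without it and that of miR-699-a -2.28.

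**Figure D4:**
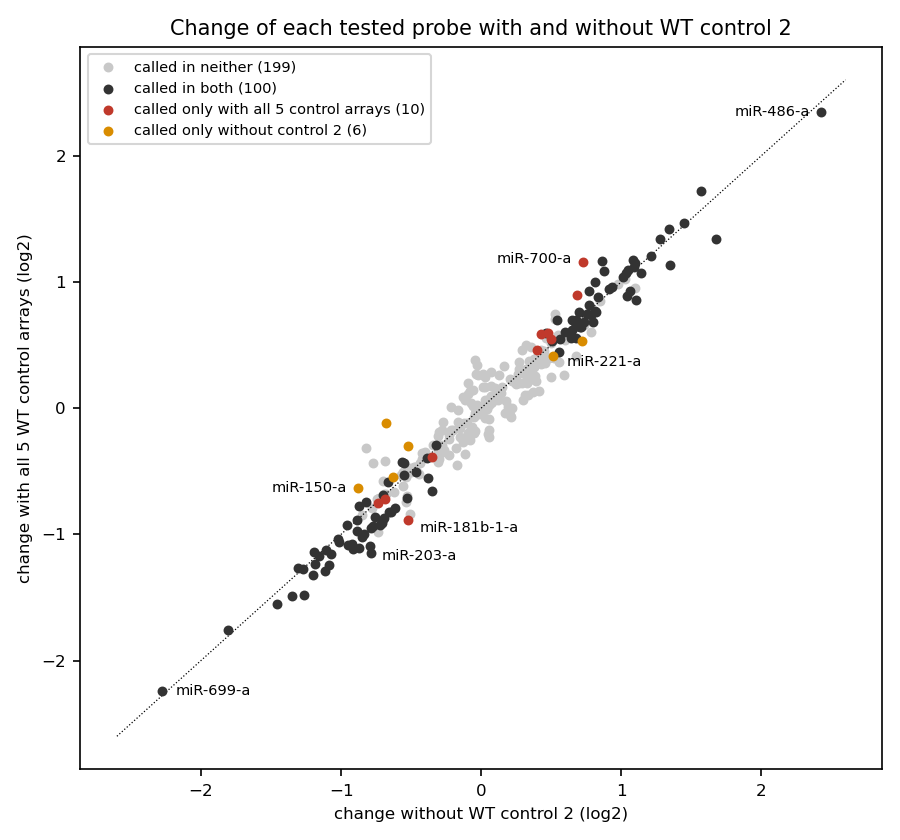
Change of each of 315 probes (log2, C. parvum minus control) with all 5 controls (y axis) against the change without control 2 (x axis), with the line of equality. Called probes in both are dark (100), those called only with control 2 red (10) and those called only without it orange (6), and miR-150-a, miR-700-a and miR-181b-1-a lie off the line.

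The wild type effect was then set against the effect in each knockout, with the difference of both effects tested in the same fit; the 3 differences share the wild type arrays. It differed from the double knockout effect in 16 of 312 probes (5.13%), 8 with a higher and 8 with a lower wild type effect. miR-451-a rose by 1.72 ± 0.33 in wild type and changed by -0.12 ± 0.31 in the double knockout, a difference of 1.84 ± 0.45 (adjusted p = 0.0103). For miR-486-a the effects were 2.35 ± 0.39 in wild type and 0.85 ± 0.36 in the double knockout, and the difference of 1.49 ± 0.53 was not called (adjusted p = 0.0773). miR-27a-a rose in wild type (0.95 ± 0.16) and was at -0.11 ± 0.15 in the double knockout (difference 1.05 ± 0.22, adjusted p = 0.00298). miR-699-a fell in wild type (-2.24 ± 0.30) and was at -0.17 ± 0.27 in the double knockout (difference -2.07 ± 0.40, adjusted p = 0.00239). miR-7-2-a differed by 1.34 ± 0.31 (adjusted p = 0.00804), with -0.01 ± 0.21 in the double knockout. For miR-21-a the difference was 0.16 ± 0.28 (95% interval -0.41 to 0.72) and for miR-222-a 0.37 ± 0.31 (95% interval -0.26 to 1.01), neither called, and these intervals do not show that the effects were alike.

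**Figure D5:**
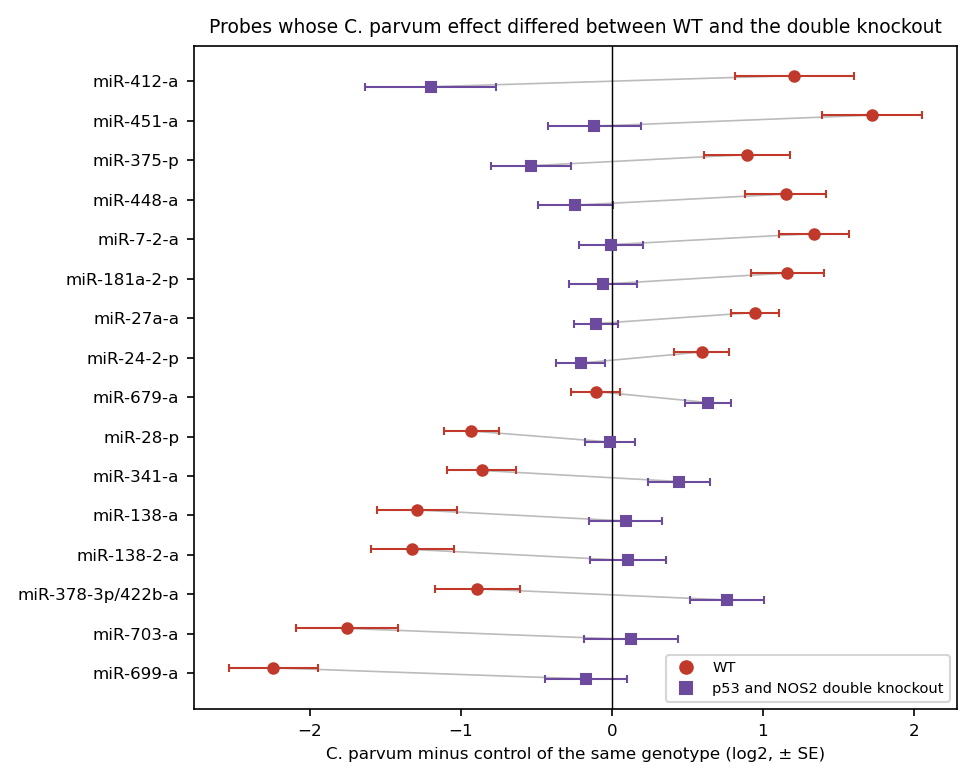
Effect of C. parvum (log2, ± SE) in wild type (circles) and double knockout spleen (squares) for the 16 probes whose effects differed. For miR-451-a, miR-7-2-a, miR-27a-a and miR-699-a the wild type value lies well away from 0 and the double knockout value near 0. The division of arrays by miR-686-p falls unevenly on the double knockout C. parvum and control arrays.

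Against the NOS2 knockout, 1 of 305 probes differed (0.328%). It was miR-196a-2-p, which fell by 1.14 (SE 0.27) in wild type and was at 0.57 ± 0.27 in the NOS2 knockout, a difference of -1.71 ± 0.37 (adjusted p = 0.015). In all, 40 probes had an unadjusted p under 0.05. Against the p53 knockout, 0 of 293 probes differed by limma (0%), with 23 at an unadjusted p under 0.05 and a smallest adjusted p of 0.345. The wild type and p53 knockout effects of miR-486-a were 2.35 ± 0.39 and 2.88 ± 0.41, and those of miR-451-a 1.72 ± 0.33 and 1.36 ± 0.35. The probe miR-686-p had a level over 10 on 18 of the 41 arrays, all 10 wild type arrays among them, and a lower or no value on the other 23, which include all p53 knockout arrays. The probe miR-9*-3-3p-a followed the same division, with values on all of these 18 arrays and on 0 of the other 23. With this division of the arrays as a term, a fit chosen after seeing the data, 7 of the 16 double knockout differences were called again, miR-451-a (2.48 ± 0.43), miR-27a-a and miR-699-a among them. Of the NOS2 knockout arrays, 2 of 5 C. parvum arrays and 0 of 5 controls lie on the wild type side. For the p53 knockout, genotype and this division cannot be told apart.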

How the data were processed

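Wild type spleen RNA was read as biotin-labelled cDNA on 10 1-channel arrays, 5 after C. parvum and 5 controls, per the labels. The authors deposited 1 table of processed values for 41 arrays and 637 probes, taken here as log2 from their range. The sources used here do not name the scanner, the background correction or the authors' normalization, and 40.4% of cells hold no value. Depth does not apply to arrays, and their number limits the precision.

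Array medians differed between groups, so the values were quantile normalized between all 41 arrays, with missing cells ranked below measured ones and left missing. A uniform shift of all miRNAs would thus not be seen. The 8 group means were fitted with limma 3.58.1 (R 4.3.3) for each probe, which pools the spread over all groups. The wild type contrast was tested on probes with at least 3 values per side, 2-sided, with Benjamini-Hochberg adjustment at 0.05 over 319 probes, and each difference from a knockout effect on probes with at least 3 values in all 4 groups. Intervals are at 95%.

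The members, lists and tests were chosen with earlier results of these data known, so no list gets a test of its own and lists are described by counts and medians. A list shows each miRNA by its brightest tested -a probe, or another probe where it has none. Probes named in the text are the 15 largest called rises and falls (1 probe per miRNA), all tested probes of the cell lists, up to 4 probes with the smallest p of each other list, the 10 brightest control probes and up to 4 of each difference, and others are marked as chosen after their values were seen. Alternatives were other scalings, filters on missing values, fits on fewer groups, array weights, a replicate block and leaving out each wild type array. Sequences and positions come from RefSeq tables on GRCm38.p6.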

Additional observations from a re-analysis of the deposited data

Results flagged for a closer look

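In each group of 4 or 5 arrays, a named probe was set apart where 1 array lay far from the nearest other array relative to the range of its group. Of 217 probe groups looked at, 20 met this limit, and chance alone gives about 1 in 20. Control 2 accounts for 7 of them: it was lowest for miR-181a-2-p (9.57), miR-223-a (13.01), miR-123-a (12.77), miR-126-5p-a (11.93) and miR-191-a (12.52), and highest for miR-203-a (11.65) and miR-106a-p (7.25). C. parvum array 5 accounts for 5, lowest for miR-451-a (12.68) and highest for miR-145-a (11.72), miR-29b-a (10.47), miR-181b-2-a (12.04) and miR-223-a (14.51). In the first 4 of these array 5 was the treated array nearest to the controls. C. parvum array 1 was lowest for miR-125b-1-a (10.54), miR-221-p (8.33), miR-126-5p-a (12.24) and miR-93-p (8.95), control 1 for miR-125b-1-a (10.80), miR-125b-2-a (10.23) and miR-24-2-a/p (7.08), and C. parvum array 4 for miR-23b-a (14.51). For miR-223-a the treated arrays otherwise held 1 tied value, so its 14.51 is a single rank step.

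The wild type effect exceeded the double knockout effect, by limma's test of the difference, for miR-412-a (2.41), miR-451-a (1.84), miR-375-p (1.43), miR-448-a (1.39), miR-7-2-a (1.34), miR-181a-2-p (1.22), miR-27a-a (1.05) and miR-24-2-p (0.80). It lay below it for miR-699-a (-2.07), miR-703-a (-1.88), miR-378-3p/422b-a (-1.65), miR-138-2-a (-1.43), miR-138-a (-1.38), miR-341-a (-1.31), miR-28-p (-0.92) and miR-679-a (-0.74). Only miR-196a-2-p was called in the difference from the NOS2 knockout (-1.71). The double knockout arrays lie on both sides of the division by miR-686-p, with 1 of 6 C. parvum and 5 of 6 control arrays on the side of the wild type arrays, and the part of that division in the 16 differences was tested only through the added term.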

How the results depend on the processing

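Of 69 named probes called in the wild type effect, 54 were called in all 10 fits without 1 array and 15 lost the call in 1 or more, among them miR-123-a, miR-125b-1-a, miR-208-p, miR-26b-a and miR-290-a. The count of 110 called probes was 94 to 114 in these fits, and 101 to 141 under the other alternatives, within 1.5 times of the main count. Among these 69 probes, direction turned for 2: miR-26b-a, -0.30 in the main fit, was 0.17 with arrays centred on their median (adjusted p = 0.321), and miR-200b-p, 0.88, was -0.30 with missing cells at a low value (adjusted p = 0.652). The causes were not tested. Replicate numbers gave no clear sign of pairing. With the group mean taken off each probe, same-numbered arrays correlated at 0.196, -0.269, 0.032, -0.054 and 0.136. Such values cannot show that the samples were unpaired. A replicate block gave 101 called probes, 96 of them shared with the 110. For the difference from the double knockout, 16 probes became 27 as deposited, 7 with the replicate block, 11 with the division of arrays by miR-686-p as a term, and 14 to 32 without 1 wild type array, where 32 came without control 1. For the NOS2 knockout, 1 became 2 after median centring, 3 with that division as a term, and 1 to 6 without 1 array, where 6 came without C. parvum 4, 3 without control 5, and 2 each without C. parvum 5, control 3 or control 4. The p53 knockout count stayed at 0 under each alternative run, by limma. Only wild type arrays were left out. Signal over background was not analysed here, so a missing value gives no bound.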

Other observations

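Some called probes outside the lists, all chosen after their values were seen, share a seed or a cluster with miRNAs described above. miR-27b-a, the seed relative of miR-27a in the second miR-23 cluster, fell by 0.71 on the log2 scale where miR-27a-a rose by 0.95, and miR-23b-a in that cluster was at -0.36 ± 0.19 and not called (-0.12 without control 2). The -a probe named for the other miR-138 gene, miR-138-1-a, fell by 0.66 (by 0.35 without control 2), and miR-138-2-p rose by 0.60. miR-31-a fell by 0.93, on 3 C. parvum arrays and 5 controls. Among probes of stem cell miRNAs of the miR-290 cluster, miR-290-a (0.46), miR-291b-3p-a (0.64) and miR-292-3p-a (0.59) rose, but without control 2 the calls of miR-290-a (0.40, adjusted p = 0.089) and miR-292-3p-a (0.43, adjusted p = 0.071) were lost. miR-185-a (0.68) and miR-15b-a (0.55) also rose.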
